A study of Drosophila melanogaster
Mus musculus with 36 samples.

Results

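The entries described here are mouse miRNAs that carry the number of a miRNA family also known from the fly. They were chosen by name as every mouse entry of miR-1, miR-7, miR-9, miR-10, miR-31, miR-33, miR-34, miR-99, miR-100, miR-124, miR-125, miR-133, miR-137, miR-190, miR-193, miR-210, miR-219 or miR-375, whatever the letter, hairpin copy or arm. There were 73 such entries among 1666 mouse entries and 2038 entries of both species in all. They covered 18 family numbers and 57 mature arms, with 34 entries for 5p arms and 39 for 3p arms.

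Total RNA of Drosophila S2-S cells of genotype DmHen1-KO; FLAG-MYC-AthHEN1 was combined with that of AN3-12 cells, a clone of mouse embryonic stem (ES) cells. S2 cells are a line of embryonic origin, and all fly RNA in the series lacked the fly's own Hen1 and came from cells with the Arabidopsis enzyme, while the mouse RNA was the same kind in every group. The fly to mouse ratios were 1:1, 1:10, 1:100, 1:1000, 1:10000 and 1:100000, and each mixture was divided into a part oxidised with sodium periodate and an untreated part. This gave 12 groups of 3 libraries, 36 in all. The set without a number in its labels, sequenced on a HiSeq2500, is called replicate 1, and replicates 2 and 3 were sequenced on a HiSeq2000. The labels do not say if replicates are separate cultures, so that p-values measure only the spread between these libraries, which may be technical. Neither the promoter of the HEN1 transgene nor the number of fly clones is stated in the labels.

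miRNAs are cut from hairpins as short duplexes, and either the 5p or the 3p strand is kept in an Argonaute protein. HEN1 methylates the 2'-hydroxyl at the 3' end of small RNAs, which protects that end from periodate. Animal miRNAs usually lack this methyl group, and an oxidised end cannot be ligated to an adapter. Several of the families here are among the most conserved of animals, and the mature miR-7-5p has nearly the same sequence in fly and mouse. A mouse entry can therefore be asked whether its counts moved with the amount of fly RNA in the mixture and whether they were kept after oxidation.

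The mouse total of an untreated library was between 175741 and 16441300 counts, with a median of 3555750, and that of an oxidised one between 1536.7 and 147364, with a median of 15404. The 73 members held between 1.36% and 2.93% of the mouse counts in untreated libraries and between 0.639% and 3.10% in oxidised libraries. Reads were present for 44 to 69 members in an untreated library and for 10 to 40 in an oxidised one. A count of 0 allowed a share of the mouse counts of up to 0.00171% in the shallowest untreated library and up to 0.195% in the shallowest oxidised one (floor of 3 counts, counting error only). Markers of mouse ES cells, the miR-290a to miR-295 and miR-302 entries, all 20 of which had reads, made up 63.2% to 88.1% of the mouse counts of untreated libraries. The 24 S2 cell entries made up 29.0% to 73.6% of the fly counts of untreated libraries. A list of 21 muscle and neural mouse entries, which includes the members miR-1a, miR-133a, miR-9 and miR-124, made up 0.465% to 1.62% of untreated and 0.0164% to 1.73% of oxidised mouse counts. After oxidation the ES list ranged from 4.89% to 73.5% of mouse counts, and mmu-mir-184-3p, which is no member, reached 91.6%. For this reason the members are not compared by their shares of mouse counts. Levels are given as scaled levels, that is reads per 1000000 of the mouse total after that total was multiplied by a TMM factor, a trimmed mean of ratios that gives little weight to such an entry. Untreated 1:10000 replicate 1 stood apart, with mmu-mir-294-3p at 39.8% of its mouse counts against at most 24.7% in the other untreated libraries. Calls at 1:10000 and over the dilute ratios that rest on it are given with and without it.

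Few of the members were abundant in the untreated mixtures. Of the 73, 18 had over 10000 counts over all libraries, 22 had under 100 and 9 under 10. The highest was mmu-mir-124-3p, the miRNA best known from neurons, with scaled levels from 4314 to 16545 and a median of 5040 over the 18 untreated libraries. It was followed by mmu-mir-7a-5p, known from endocrine and neural cells, which ranged from 1744 to 4783 (median 2463). mmu-mir-34a-5p, a target of p53, ranged from 850.7 to 2259 (median 1132) and overlapped in range with mmu-mir-7a-5p. mmu-mir-193a-3p had a median of 889.6 and mmu-mir-125a-5p, a relative of the worm lin-4, one of 562.3. The ranges of the last 2 arms, 546.3 to 3048 and 468.1 to 2395, overlapped as well.

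The neural miR-9-5p (median 490.1), the hypoxia-induced miR-210-3p (446.1) and miR-33-5p (309.6), which lies within genes of the sterol regulators and acts on lipid transport, followed. Below them stood miR-125b-5p (187.5), miR-99b-5p (162.5), miR-190a-5p (116.5) and miR-31-5p (97.8). These are medians of the scaled level over the 18 untreated libraries, and the order of neighbours was not tested. miRNAs named for other tissues were close to the floor. The muscle miRNAs mmu-mir-1a-3p and mmu-mir-133a-3p had medians of 0.840 and 0.528, and mmu-mir-375-3p, known from pancreatic islets, had a median of 0.816. mmu-mir-100-5p had 2.61, mmu-mir-137-3p 3.35, mmu-mir-10b-5p 2.11 and mmu-mir-10a-5p, encoded in a Hox cluster, 0.515.

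Some hairpin copies give the same mature arm. Reads of such copies were divided among the entries: for mmu-mir-124-3p, with 3 copies, no entry ever held more than 33.3% of the arm's reads, and the sum over copies was a whole number in 35 of 36 libraries. For mmu-mir-7a-5p, with 2 copies, the sum was whole in only 17 of 36 libraries. How reads that match entries of several families or of both species were assigned is not stated in the labels. Copies are therefore not independent, and 4 pairs of members had equal counts in all 36 libraries. Arms are described below by the sum over copies and tests by entry.

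The first question was which mouse entries rose with the fly RNA before oxidation. None passed the test. Of the 49 members with enough reads, edgeR's quasi-likelihood test called 0 higher and 0 lower in untreated 1:1 mixtures than in the mean of the 3 dilute mixtures (1:1000, 1:10000 and 1:100000), with an adjusted p below 0.05 as the threshold. Over all 733 mouse entries tested, 0.546% were called higher and 0.136% lower. At an unadjusted p below 0.05, 2 members were higher and 1 was lower, and DESeq2 called 0 higher and 1 lower. The median log2 difference was -0.02 over the members tested and 0.01 over all mouse entries tested. The other 24 of the 73 members did not pass the filter on low counts.

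mmu-mir-7a-5p had the lowest unadjusted p among the higher members. Its scaled level in untreated 1:1 libraries was 2779, 4783 and 3211, against 2101 to 2813 in the 9 untreated dilute libraries. Of the 1:1 libraries, replicates 2 and 3 lay above all 9 dilute libraries and replicate 1 lay within their range. Both of its entries had a log2 difference of 0.56 ± 0.25 (SE), with an adjusted p of 0.202 for mmu-mir-7a-1-5p and of 0.198 for mmu-mir-7a-2-5p in edgeR's test. mmu-mir-193a-3p was at 762.3, 885.5 and 657.8 in the 1:1 libraries and at 893.7 to 3048 in the dilute ones, so that the groups did not overlap. Its log2 difference was -0.93 ± 0.31 with an adjusted p of 0.0571 in edgeR's test, and DESeq2 called it lower with an adjusted p of 0.00937. Its highest dilute value came from untreated 1:10000 replicate 1, without which edgeR gave -0.75 ± 0.26 (adjusted p 0.0610) and DESeq2 -0.75 (adjusted p 0.0239). With the replicate set as a block, edgeR called mmu-mir-193a-3p lower (log2 -0.93, adjusted p 0.0485; -0.72 and 0.0488 without that library) and mmu-mir-99b-5p higher (log2 0.60, adjusted p 0.0118).

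The calls of the untreated comparison turned on replicate 1, although without untreated 1:10000 replicate 1 alone they stayed at 0 and 0. Without that set edgeR called 9 members higher and 9 lower, with differences of at most 0.92 log2 units upward (mmu-mir-31-5p) and -0.97 downward (mmu-mir-34c-5p). The share over all mouse entries is not given for this fit, so that these counts cannot be set against it. The 9 higher included mmu-mir-7a-1-5p at 0.64 (adjusted p 0.0208) and mmu-mir-125b-1-5p at 0.61 (adjusted p 0.00780), and the 9 lower included mmu-mir-33-5p at -0.62 and the 3 entries of mmu-mir-124-3p at -0.58. The sets differed most for mmu-mir-33-5p, whose untreated scaled level was 5.00-fold higher in replicate 1 than in the other sets, and higher at 6 of 6 ratios. mmu-mir-7b-5p was 3.46-fold and mmu-mir-34b-5p 3.04-fold higher in replicate 1, and mmu-mir-9-5p was at 0.436 of the level of the other sets. mmu-mir-7a-5p and mmu-mir-124-3p were at 0.969 and 0.976 of it. The sequencer and the RNA input differ between these sets in the same way and cannot be told apart.

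Most fly entries followed the fly RNA: of the 61 that could be called in the same untreated comparison, 58 were higher at 1:1. In untreated 1:1 libraries dme-mir-34-5p had 40288, 5581 and 37061 counts and in 1:100000 libraries 48, 3 and 7. mmu-mir-34a-5p had 8637, 279 and 2073 counts in the first and 5286, 5165 and 13117 in the second. On the scaled level, the mean of dme-mir-34-5p was 1630-fold and that of dme-mir-33-5p 487-fold higher at 1:1 than over the dilute mixtures, while the log2 difference of mmu-mir-34a-5p was 0.18 ± 0.28 and that of mmu-mir-33-5p -0.68 ± 0.79. dme-mir-33-5p did not fall to the same floor in every set: at 1:100000 its scaled level was 62.6 in replicate 1, and 0.531 and 0.389 in the others.

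Several fly entries did not follow the fly RNA. dme-mir-124-3p had 34, 1 and 3 counts in untreated 1:1 libraries and 17, 56 and 132 in 1:100000 libraries, where mmu-mir-124-3p had 11916, 34048 and 94954. Its counts summed to 0.127% of those of the mouse arm over the untreated libraries. The corresponding shares were 0.190% for dme-mir-125-5p against mmu-mir-125b-5p, 0.185% for dme-mir-9a-5p against mmu-mir-9-5p and 0.0815% for dme-mir-210-3p against mmu-mir-210-3p. Between the 1:1 and the dilute mixtures the mean scaled level of these 4 fly entries changed by factors of 0.468 to 1.85, and each was far below the mouse arm of its number. Whether the reads under these 4 entries came from fly or from mouse RNA was not tested, nor whether fly reads were counted under the mouse arms.

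The 2 arms of fly miR-7 differed from each other. dme-mir-7-3p had 116, 4 and 70 counts in untreated 1:1 libraries, 20, 4 and 46 at 1:10, and 0 in all 6 libraries of 1:10000 and 1:100000. dme-mir-7-5p had 1 count in the 3 untreated 1:1 libraries together, 13 over all 18 untreated libraries and 0 over the 18 oxidised ones. mmu-mir-7a-5p had 14411.5, 1010 and 5767.3 counts in the same untreated 1:1 libraries. The fly 3p strand was therefore counted where fly RNA was abundant and the fly 5p strand was not.

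**Figure D1:**
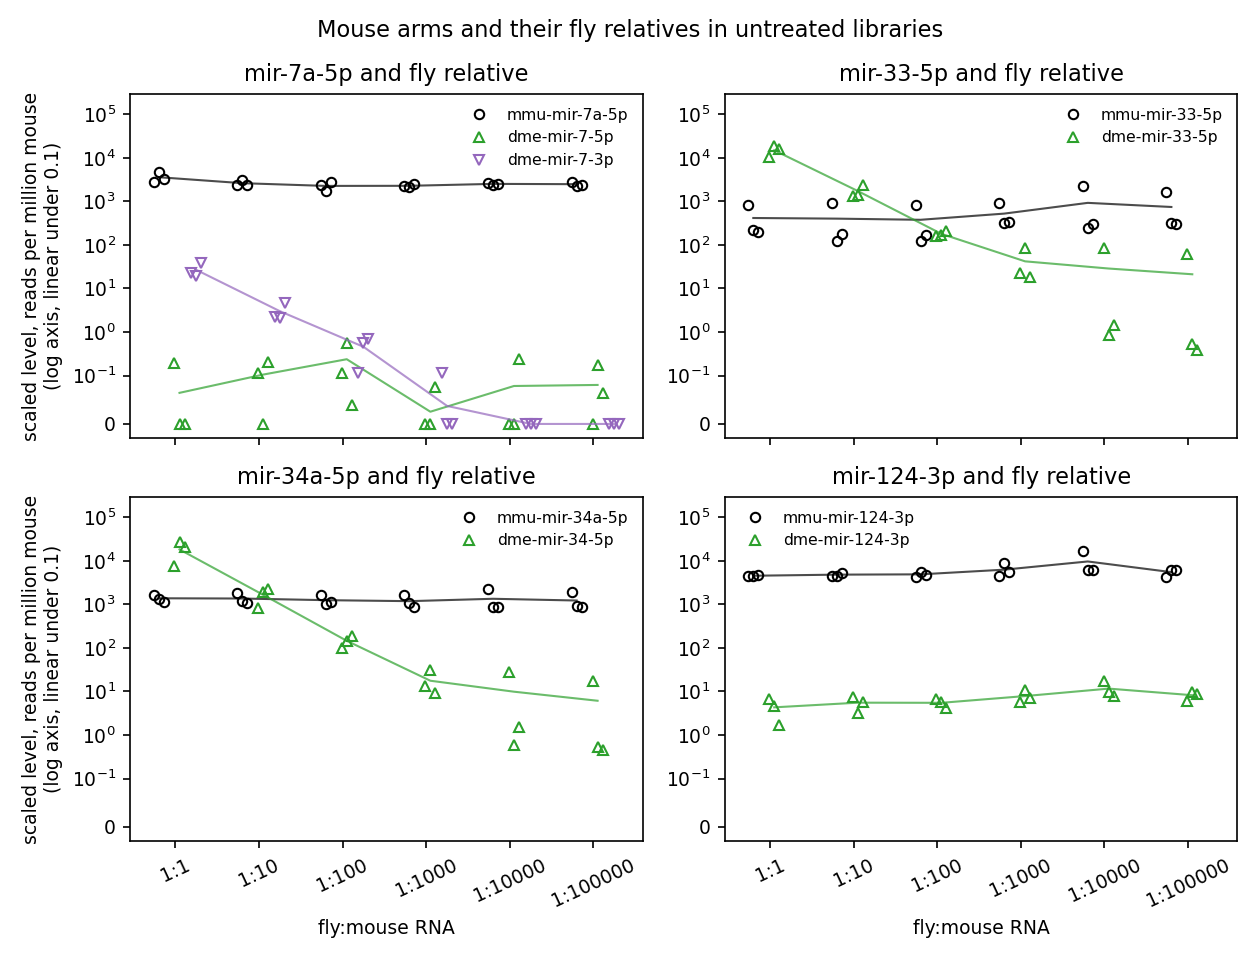
Scaled level (reads per 1000000 of the scaled mouse total, log axis that is linear under 0.1) of 4 mouse arms and of their fly relatives in the untreated libraries, by ratio of fly to mouse RNA. Each symbol is 1 library and lines join the means of 3. dme-mir-33-5p, dme-mir-34-5p and dme-mir-7-3p fall with the fly RNA, whereas dme-mir-124-3p and the 4 mouse arms do not.

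The second question was which members were higher after oxidation. At 1:1, edgeR called 6 of the 28 members tested higher than in untreated libraries and 0 lower, against 2.43% higher and 0% lower over the 370 mouse entries tested. None was lower at an unadjusted p below 0.05 and none by DESeq2. The 6 were the 2 entries of mmu-mir-7a-5p, mmu-mir-33-5p, the 2 entries of mmu-mir-125b-5p and mmu-mir-10a-5p. The filter on low counts read all 36 libraries, and mmu-mir-10a-5p passed it only through oxidised libraries, where it was high. The median log2 difference over the 28 was -0.08, and over all mouse entries tested 0.04. A scaled level that is the same in both treatments means that the arm was lost in proportion to the mouse entries used for scaling.

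mmu-mir-7a-5p lay above its untreated level in every set. Since fly miR-7-5p is nearly the same in sequence and dme-mir-7-5p had almost no reads, reads from the fly and from the mouse arm cannot be told apart in these counts. In oxidised 1:1 libraries it had 1546, 35 and 315 counts, which correspond to scaled levels of 99951, 37224 and 44350. In the untreated parts of the same mixtures the scaled levels were 2779, 4783 and 3211. The lowest oxidised library lay far above the highest untreated one, and the means were 60508 ± 34344 and 3591 ± 1055 (SD, n = 3 each). The log2 difference was 4.08 ± 0.50 (SE) for mmu-mir-7a-1-5p and 4.13 ± 0.49 for mmu-mir-7a-2-5p, both with an adjusted p of 1.11e-07 in edgeR's test. With libraries scaled to the counts of both species the call was lost for both, at 1.82 (adjusted p 0.0633) for mmu-mir-7a-1-5p and 1.86 (adjusted p 0.0579) for mmu-mir-7a-2-5p. The other arm of the same hairpins, mmu-mir-7a-3p, had 0, 0 and 1 counts in the oxidised 1:1 libraries and 229, 7 and 89 in the untreated ones. mmu-mir-7a-1-3p was not called (log2 0.06 ± 1.55).

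Scaled to the ES cell list in place of the TMM factors, mmu-mir-7a-5p gave a similar picture from the same libraries. At 1:1 it had 7.21 ± 1.39 reads per 1000 reads of the ES cell list in untreated libraries and 141.4 ± 63.6 in oxidised libraries (SD, n = 3 each), with the oxidised part higher in 3 of 3 mixtures. An exact two-sided permutation test, which did not use the pairing by mixture, gave p = 0.1, the smallest that 3 against 3 allows. At 1:10 the values were 5.80 ± 1.21 and 72.5 ± 5.57, and at 1:100 they were 4.98 ± 1.09 and 13.7 ± 7.35, with p = 0.1 by the same exact test at both ratios. At 1:1000 they were 5.66 ± 1.03 and 5.42 ± 1.57 (exact p = 0.9). At 1:10000 they were 5.03 ± 3.28 and 10.3 ± 5.23, with the oxidised part higher in 3 of 3 mixtures (exact p = 0.3). At 1:100000 they were 5.23 ± 1.63 and 9.72 ± 7.84, with the oxidised part higher in 2 of 3 mixtures (exact p = 0.6).

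mmu-mir-33-5p was also higher in the oxidised 1:1 libraries, but with a wide spread. Its counts there were 357, 1 and 17, and its scaled levels were 23080, 1064 and 2393 against 820.9, 222.6 and 202.1 in untreated libraries. All 3 oxidised libraries lay above all 3 untreated ones, and replicate 1 lay far above the other oxidised ones. In replicate 2 any read lies above all untreated values, since a single read corresponds to 1064 at its depth. The log2 difference was 4.53 ± 1.09 with an adjusted p of 0.000750 in edgeR's test. Without oxidised 1:1 replicate 1 it was 2.15 with an adjusted p of 0.218, so that the call rests on that library. The fly arm had 141866, 2658 and 22725 counts in the same 3 libraries, and the counts of the mouse arm summed to 0.224% of those of the fly arm. At 1:10 this share was 0.213%, at 1:1000 it was 0.937% and at 1:100000 it was 62.2%. The part of the fly arm in the counts of the mouse arm was not tested.

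mmu-mir-125b-5p rested on few reads. It had 15, 0 and 23 counts in oxidised 1:1 libraries and scaled levels of 969.8, 0 and 3238, against 129.8, 246.2 and 307.3 in untreated libraries. Replicates 1 and 3 lay above all untreated libraries. In replicate 2 a single read corresponds to a scaled level of 1064, so that its count of 0 does not place it below them. The log2 difference of mmu-mir-125b-1-5p was 3.00 ± 0.90 with an adjusted p of 0.00743 in edgeR's test, and without oxidised 1:1 replicate 3 it was 1.88 with an adjusted p of 0.303. Its fly relative dme-mir-125-5p had 0 counts in all 18 oxidised libraries. The rule for reads that match both species is not stated, and the part of fly reads in the counts of mmu-mir-125b-5p was not tested. mmu-mir-125a-5p, from another hairpin of the family, was not called (log2 0.00 ± 0.97).

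For mmu-mir-10a-5p the call came from a single library. It had 5, 0 and 0 counts in the oxidised 1:1 libraries and 1, 0 and 3 in the untreated ones, and without oxidised 1:1 replicate 1 the log2 difference changed from 8.07 ± 1.30 to -4.35 with an adjusted p of 0.967. The fitted values, also that in the plot of log2 differences, rest on these few counts. The scaled level of the arm was at most 1.67 in untreated libraries and up to 813.6 in oxidised ones. It entered the test only through the latter, so that its call is no support for a rise.

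**Figure D2:**
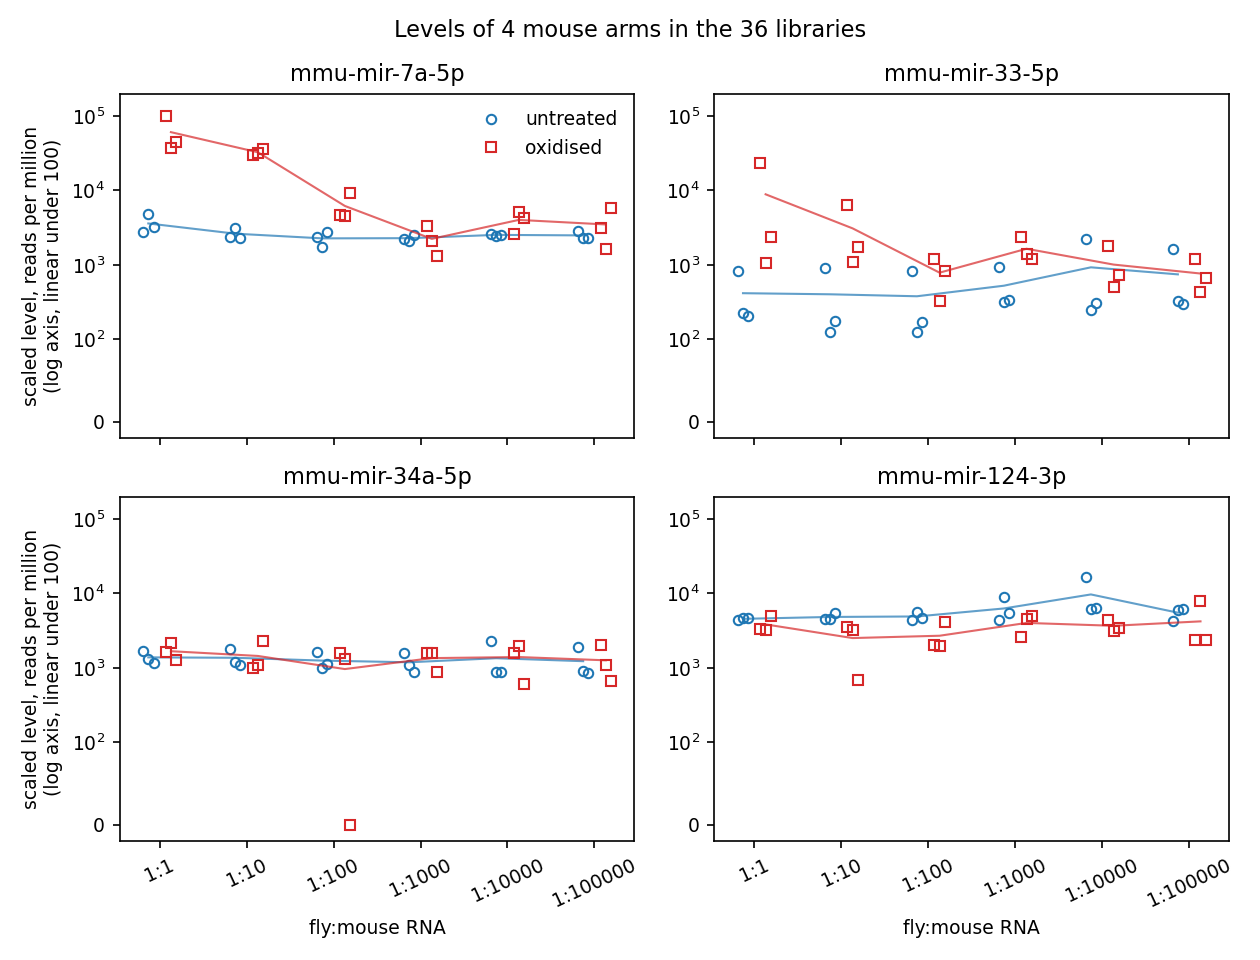
Scaled level (reads per 1000000 of the scaled mouse total, log axis that is linear under 100) of 4 mouse arms in all 36 libraries, by ratio of fly to mouse RNA and treatment. Each symbol is 1 library and lines join the means of 3. Oxidised mmu-mir-7a-5p lies between 37224 and 99951 at 1:1 and overlaps with the untreated libraries at 1:1000, while mmu-mir-34a-5p overlaps between treatments at all ratios except for a single oxidised library at 0.

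The remaining tested members were not called at 1:1. mmu-mir-34a-5p was at 1616, 2127 and 1267 in oxidised and at 1666, 1321 and 1154 in untreated 1:1 libraries, so that the groups overlapped, and its log2 difference was 0.18 ± 0.57. mmu-mir-124-3p had -0.19 ± 0.54 for each of its 3 entries, mmu-mir-193a-3p -0.44 ± 0.66 and mmu-mir-210-3p -0.15 ± 0.79. mmu-mir-190a-5p had the highest difference among abundant arms not called, 1.55 ± 0.95, from 8 counts in the 3 oxidised libraries. mmu-mir-219a-1-5p, an oligodendrocyte miRNA, was at 0 in all 3 oxidised 1:1 libraries, as were mmu-mir-31-3p and mmu-mir-99b-3p. At this depth a loss of these 3 arms beyond that of the other mouse entries was not detectable.

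**Figure D3:**
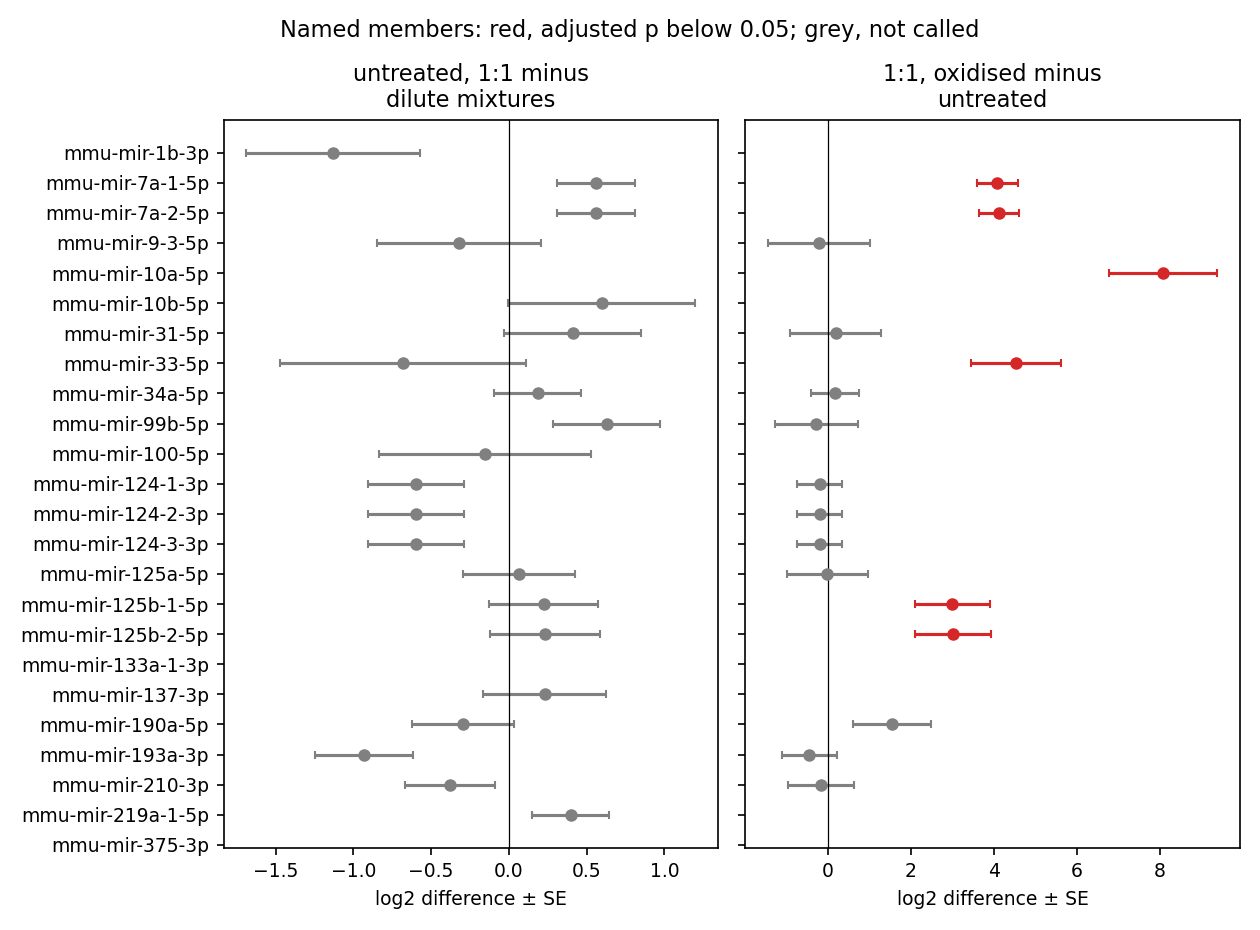
Log2 differences with their SE for the named members that had reads in every group compared, 21 in untreated libraries (1:1 minus the dilute mixtures) and 17 at 1:1 (oxidised minus untreated), out of 24 named. Red marks an adjusted p below 0.05 in edgeR's test. No member is red on the left, and on the right the entries of mmu-mir-7a-5p, mmu-mir-33-5p, mmu-mir-125b-5p and mmu-mir-10a-5p are.

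The difference of mmu-mir-7a-5p between treatments had a lower value at each step to 1:1000, although neighbouring ratios were not tested against each other. Its scaled levels in oxidised libraries were 30047, 31469 and 35849 at 1:10 and 4719, 4575 and 9221 at 1:100. They were 3315, 2064 and 1309 at 1:1000, where they overlapped with the untreated values of 2244, 2101 and 2487. At 1:10000 they were 2590, 5190 and 4244 against untreated values of 2595, 2439 and 2530, so that replicates 2 and 3 lay above all untreated libraries and replicate 1 lay within their range. At 1:100000 they were 3088, 1625 and 5727, again on both sides of the untreated libraries at 2813, 2307 and 2325. The log2 difference of mmu-mir-7a-1-5p between oxidised and untreated libraries was 3.59 ± 0.49 at 1:10 (adjusted p 2.44e-07), 1.34 ± 0.49 at 1:100 (adjusted p 0.0347) and -0.11 ± 0.48 at 1:1000 (adjusted p 1) in edgeR's test. At 1:10000 and 1:100000 it was 0.67 ± 0.45 and 0.41 ± 0.46 and was not called.

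mmu-mir-7a-5p was the 1 arm for which the difference between treatments was called as depending on the mixture. The difference between treatments at 1:1 exceeded that at the 3 dilute ratios by 3.76 ± 0.54 for mmu-mir-7a-1-5p and by 3.78 ± 0.53 for mmu-mir-7a-2-5p, each with an adjusted p of 2.22e-05 in edgeR's test. These were 2 of the 20 members that could be called. Of the 370 mouse entries tested 263 could be called, and these were the 2 called, or 0.541% of those tested. Without replicate 3 the value of mmu-mir-7a-1-5p was 3.78 with an adjusted p of 0.0538. With libraries scaled to the counts of both species it was 2.06 with an adjusted p of 0.142, and the call was lost in both cases. With the replicate set as a block, 5 members were called, which added mmu-mir-33-5p at 3.09 (adjusted p 0.000132) and the 2 entries of mmu-mir-125b-5p at 3.83 (adjusted p 0.0306). Without the block mmu-mir-33-5p had 4.05 ± 1.18 and an adjusted p of 0.0616.

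Within oxidised libraries alone the entries of mmu-mir-7a-5p were called too, with mmu-mir-33-5p. Of 8 members with enough reads in the 18 oxidised libraries, 3 were higher at 1:1 than in the dilute mixtures and none lower, against 5.71% higher and 0% lower over the 70 mouse entries tested. mmu-mir-7a-1-5p was higher by 4.26 ± 0.42 log2 units (adjusted p 2.85e-08) and mmu-mir-7a-2-5p by 4.29 ± 0.41 (adjusted p 2.06e-08) in edgeR's test. mmu-mir-33-5p was higher by 3.20 ± 0.63 (adjusted p 0.000133) and lost the call without oxidised 1:1 replicate 1, where it was at 0.91 (adjusted p 0.349). mmu-mir-34a-5p had 0.23 ± 0.55, mmu-mir-124-3p -0.06 ± 0.56 and mmu-mir-193a-3p -1.05 ± 0.73, none of them called. This contrast shares its oxidised libraries with those above and is no separate evidence.

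At 1:10 and 1:100 the called members were again few. At each of these ratios edgeR called 6 members higher and 0 lower, against 4.32% and 7.03% higher and 0% lower over all mouse entries tested. At 1:10 the 6 were the entries called at 1:1. At 1:100 mmu-mir-31-3p, the minor arm of its hairpin, took the place of mmu-mir-33-5p, on 5 counts in 1 oxidised library. mmu-mir-125b-5p had 77, 2 and 1 counts in the oxidised 1:100 libraries and scaled levels of 2167, 653.6 and 813.6, all above the untreated values of 130.0, 288.3 and 267.7. A single read corresponds to 326.8 in replicate 2 and to 813.6 in replicate 3, so that any read there lies above all untreated values. These 2 libraries are therefore no support for a rise. At 1:1000, mmu-mir-219a-1-5p and mmu-mir-99b-3p were higher and mmu-mir-193b-3p was lower, against 4.86% and 2.16% of the mouse entries. In the oxidised libraries these calls rest on 0, 6.5 and 2 counts for mmu-mir-219a-1-5p, on 0, 5 and 0 for mmu-mir-99b-3p and on 0 in all 3 for mmu-mir-193b-3p. Like mmu-mir-10a-5p, the entries mmu-mir-31-3p, mmu-mir-219a-1-5p and mmu-mir-99b-3p passed the filter only through oxidised libraries where they were high. Their calls are no support for a rise. At 1:10000, 0 members were higher and 5 lower, against 5.95% and 16.8%, and the 5 were the 3 copies of mmu-mir-124-3p with mmu-mir-193b-3p and mmu-mir-34c-5p, the last 2 at 0 counts in all 3 oxidised libraries. Without untreated 1:10000 replicate 1, 1 was higher (mmu-mir-31-5p, on 1, 46 and 3 oxidised counts) and 2 lower, and mmu-mir-124-1-3p moved from -1.46 (adjusted p 0.0238) to -0.86 (adjusted p 0.231). At 1:100000, 1 was higher, mmu-mir-10a-5p on 2 counts, and 0 lower, against 2.97% and 1.08%.

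**Figure D4:**
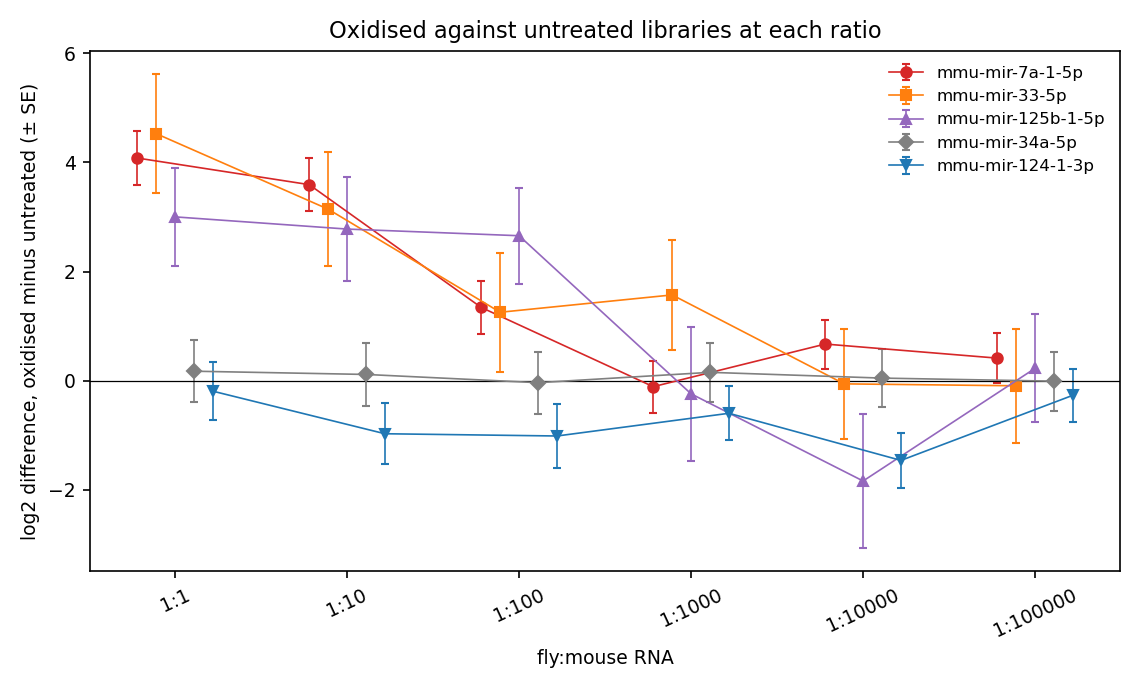
Log2 difference between oxidised and untreated libraries with its SE, by ratio of fly to mouse RNA, for 5 members, from edgeR's fit over all 36 libraries with 3 libraries per group. mmu-mir-7a-1-5p falls from 4.08 at 1:1 to -0.11 at 1:1000, mmu-mir-125b-1-5p lies between 2.66 and 3.00 from 1:1 to 1:100, and mmu-mir-34a-5p lies between -0.03 and 0.18 at all 6 ratios.

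Where fly RNA was scarce, no member was called higher after oxidation on average, although single dilute ratios had such calls on few counts. On average over the 3 dilute ratios, 21 of the 28 tested members could be called, 0 were higher and 3 lower. Of the 370 mouse entries tested 282 could be called, and 13 were higher (3.51% of those tested) and 10 lower (2.70%). At an unadjusted p below 0.05 no member was higher either, and DESeq2 called 0 members higher. With the replicate set as a block, mmu-mir-33-5p was called higher by 0.97 (adjusted p 0.00245), against 0.47 ± 0.59 without it (adjusted p 0.757). mmu-mir-7a-1-5p had 0.33 ± 0.27 with an adjusted p of 0.686, mmu-mir-34a-5p 0.07 ± 0.31 and mmu-mir-193a-3p -0.36 ± 0.32.

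The 3 lower entries were the copies of mmu-mir-124-3p. In the 9 oxidised dilute libraries the arm had 10 to 779 counts and scaled levels of 2358 to 7895, and in the 9 untreated ones 4314 to 16545, so that the groups overlapped. The log2 difference was -0.77 ± 0.28 with an adjusted p of 0.0445 in edgeR's test for each copy. Without untreated 1:10000 replicate 1, the library that stood apart and held the value of 16545, it was -0.59 with an adjusted p of 0.127. The call was lost on leaving out most other dilute libraries too, and with the copies summed to 1 entry it was -0.70 with an adjusted p of 0.0922. Since the copies share their reads, this is 1 arm and not 3.

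On average over all 6 ratios, 19 members could be called, and 3 were higher and 3 lower. Of the 370 mouse entries tested 253 could be called, and 14 were higher (3.78% of those tested) and 8 lower (2.16%). mmu-mir-33-5p was higher by 1.73 ± 0.42 (adjusted p 0.00176), mmu-mir-7a-1-5p by 1.67 ± 0.19 (adjusted p 6.22e-09) and mmu-mir-7a-2-5p by 1.70 ± 0.19, all by edgeR's test. The 3 lower entries were the copies of mmu-mir-124-3p, with a log2 difference of -0.75 ± 0.22 and an adjusted p of 0.00861 in edgeR's test for mmu-mir-124-1-3p. Without untreated 1:10000 replicate 1 it was -0.66 (adjusted p 0.0127). The call was lost without replicate 2 (-0.87, adjusted p 0.0606), without replicate 3 (-0.84, adjusted p 0.0647) and with no filter on low counts (-0.75, adjusted p 0.211). That of mmu-mir-33-5p was lost without oxidised 1:100 replicate 1 (1.58, adjusted p 0.0556). For mmu-mir-7a-5p this average joined a rise at 1:1, 1:10 and 1:100 with no call at the other ratios. With the replicate set as a block mmu-mir-190a-5p was called higher as well (0.95, adjusted p 0.0477; 0.0726 without the block).

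These averages depended on the scaling of the shallow oxidised libraries. With TMM over all mouse entries, also those with few reads, the median mouse entry shifted by -0.98, with DESeq2 size factors by -2.24, and with the counts of both species by -1.58 log2 units. mmu-mir-7a-1-5p then had 0.60, -0.73 and 0.04, and relative to the shift of the median entry 1.58, 1.50 and 1.62, against the 1.67 above. mmu-mir-33-5p had 0.77, -0.50 and 0.39, and 1.75, 1.73 and 1.97 relative to the shift. With DESeq2 size factors edgeR's test called both copies of mmu-mir-7a-5p lower (adjusted p 0.00839 and 0.0118). With the counts of both species neither copy was called. mmu-mir-33-5p was not called with any of these scalings (adjusted p 0.0689, 0.240 and 0.517 in edgeR's test). At 1:1 the shifts were -0.78, -1.83 and -2.88, and mmu-mir-7a-1-5p stood at 4.07, 4.16 and 4.70 relative to them. mmu-mir-125b-1-5p stood at 3.05, 3.01 and 2.65, although with the counts of both species its own log2 difference was -0.24. A change of scaling moves all entries of a library by the same factor, so that values relative to the shift stay similar by construction. They are no test of the calls, and whether an arm rose in absolute terms cannot be read from them.

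Other conserved mouse families, let-7 and the miR-98, miR-184, miR-25, miR-32, miR-92, miR-363, miR-367, miR-141, miR-200, miR-429, miR-96 and miR-183 entries, were set beside the members. Of these 52 entries 46 were tested in untreated libraries and 1 was called higher at 1:1, and of 32 tested at 1:1 between treatments 1 was called higher. It was mmu-mir-184-3p in both, higher by 10.38 ± 0.77 and by 6.56 ± 1.21 log2 units. Its share of mouse counts in untreated libraries fell from 7.66% ± 3.07 at 1:1 to 0.00407% ± 0.00427 at 1:100000 (SD, n = 3 each). On average over the 6 ratios 4 of these entries were higher and 0 lower, among them mmu-let-7a-1-5p by 5.93 ± 0.63 (adjusted p 1.31e-09 in edgeR's test).

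By these calls the members fell into few groups. None was called as following the fly RNA in untreated mixtures. 3 entries, mmu-mir-33-5p and the 2 copies of mmu-mir-7a-5p, were called higher after oxidation on average over the ratios, and none of them on average over the dilute ratios. These are calls without the replicate block, which adds mmu-mir-99b-5p in untreated libraries, mmu-mir-190a-5p over the 6 ratios and mmu-mir-33-5p over the dilute ratios. The higher calls of mmu-mir-33-5p and both copies of mmu-mir-7a-5p over the 6 ratios were lost with DESeq2 size factors. They were also lost with the counts of both species. A further 24 were tested in both comparisons and called higher in neither, although not all of them could be called on average. Of the 28 members tested between treatments, 19 could be called over the 6 ratios and 21 over the dilute ratios. Among the 24, the 3 copies of mmu-mir-124-3p were called lower after oxidation on both averages. The 2 copies of mmu-mir-125b-5p were called higher after oxidation at 1:1, 1:10 and 1:100. On few counts at single ratios, mmu-mir-31-3p, mmu-mir-219a-1-5p and mmu-mir-99b-3p were called higher and mmu-mir-193b-3p and mmu-mir-34c-5p lower. Another 22 were tested only in untreated libraries without a call, 1 (mmu-mir-10a-5p) was tested only between treatments, and 23 did not pass the filter in either. Among these 23, mmu-mir-1a-3p had 28 of its 29 oxidised counts in oxidised 1:10000 replicate 2.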

How the data were processed

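Small RNAs of 18 to 30 nt were sequenced from the mixtures after depletion of 2S rRNA, per the labels. The authors deposited expected counts for each arm entry of both species. These counts can be fractional, and whole numbers made up 80.0% to 98.1% of a library's values. Cutadapt 1.2.1, HTSeq 0.6.1p1, mm10 and dm3 are named, without roles, per the submitters' processing notes. The aligner is not given in the sources used here, nor is the rule for reads that match several entries. Of the 2038 entries, 257 were missing from the files of replicate 1 (at most 6 counts elsewhere) and were set to 0.

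Counts were rounded and tested with edgeR 4.0.16 in R 4.3.3 (quasi-likelihood, 1 mean per group, filterByExpr with a minimum count of 10 and total of 15), and p-values were adjusted by Benjamini-Hochberg over the tested entries of mouse and fly together. DESeq2 1.42.0 was an alternative. The untreated and the oxidised comparisons were fitted on their own 18 libraries and those between treatments on all 36. The filter read all libraries of a fit. A mean over several groups was not called where a group was all 0. An SE is the log2 difference divided by the square root of the F statistic and is approximate.

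Each library was scaled to its mouse total times a TMM factor. In tests on simulated data TMM over all mouse entries was biased in shallow libraries. Several minimums and a list of the most abundant entries were tried there, and the simulated fold was lowered along the way, all with earlier results known. The factors were then computed from entries expected at 1 or more counts in the smallest library of the fit, 583 in untreated, 76 in oxidised and 85 in all libraries. The design had named TMM over mouse entries without such a limit, and the values with all of them are given.

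Reads per 1000 reads of the ES cell list were added after seeing the data. Members and lists were chosen with earlier results of these data known. Named members were those called, the 10 with the highest share at untreated 1:100000 and the highest arm of each number. Oxidised and untreated parts with the same number come from 1 mixture, per the labels. Over the 100 most abundant mouse entries the median correlation of their deviations was 0.319 over 18 pairs, over 0.1 in 14 pairs. The main tests between treatments did not use this pairing. Amplified reads are not independent molecules, so that the floor of 3 counts covers counting error only.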

Additional observations from a re-analysis of the deposited data

Results flagged for a closer look

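The difference between oxidised and untreated libraries was not the same across mixtures for the 2 copies of mmu-mir-7a-5p. Its value at 1:1 minus that at the 3 dilute ratios was 3.76 log2 units for mmu-mir-7a-1-5p and 3.78 for mmu-mir-7a-2-5p, and edgeR's test of this difference gave an adjusted p of 2.22e-05 for both. The 2 entries share their reads and are 1 arm. The call of both was lost without replicate 3 (adjusted p 0.0538 in edgeR's test). It was also lost with libraries scaled to the counts of both species (adjusted p 0.142 in the same test).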

How the results depend on the processing

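The counts of members called changed mainly with the scaling of the oxidised libraries. Shares over all mouse entries are not given for the alternatives, so that their counts cannot be read as particular to the members. With the counts of both species, members called at 1:1 between treatments were 0 higher and 15 lower, over 6 ratios 0 higher and 13 lower, and for the dependence on the mixture 0 higher. With DESeq2 size factors, 3 were higher and 4 lower at 1:1, 0 higher and 18 lower over 6 ratios, 25 lower over the dilute ratios, and 5 higher within oxidised libraries. With TMM over all mouse entries, an alternative chosen after seeing the data, 12 were lower over 6 ratios and 14 over the dilute ratios. In untreated libraries each of these 3 scalings called 1 lower, as did DESeq2's test, the summed copies and 1 mean for the dilute ratios (the last also chosen after seeing the data). Both copies of mmu-mir-7a-5p reversed over 6 ratios with DESeq2 size factors and were called lower (-0.73 and -0.70). mmu-mir-33-5p reversed there too, without a call (-0.50). Both copies of mmu-mir-125b-5p reversed at 1:1 with the counts of both species (-0.24 and -0.22), and mmu-mir-10a-5p without oxidised 1:1 replicate 1 (-4.35, against up to 10.15 with others left out). DESeq2's test called 6 higher over 6 ratios and 5 for the dependence on the mixture. Without a filter 5 were higher within oxidised libraries, 5 depended on the mixture, and 0 were lower over 6 or over the dilute ratios. With copies summed 1 was lower over 6 ratios, 0 over the dilute ratios, and 1 depended on the mixture. All 36 libraries in 1 fit gave 5 higher within oxidised libraries. The replicate block gave 1 higher and 1 lower in untreated libraries, 1 higher over the dilute ratios and 5 for the dependence on the mixture. Without untreated 1:10000 replicate 1 the block gave the same 1 and 1 in untreated libraries, DESeq2's test called 1 lower there, and 1 was higher and 2 lower at 1:10000. The block's other counts stayed within 1.5 times, although mmu-mir-190a-5p joined the calls over 6 ratios.

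Leaving out 1 replicate set or 1 library gave 0 to 9 higher and 0 to 9 lower in untreated libraries, 2 to 5 higher within oxidised ones and 4 to 6 higher at 1:1. Over 6 ratios it gave 2 to 6 higher and 0 to 3 lower, over the dilute ratios 0 to 2 higher and 0 to 3 lower, and for the dependence on the mixture 0 to 5 higher. Single libraries were left out after seeing the data. The cause of these changes was not tested. Single members' values under alternatives were compared only for the calls given above, and for both copies of mmu-mir-7a-5p in untreated libraries. Of these values, 597 kept direction and side of the threshold, 87 lost the call, 2 gained it and 6 reversed. Calls gained by other members are not in these numbers. Oxidised libraries with few mouse counts limited the tests to 8 members within oxidised libraries and 28 between treatments, of 73.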
